A study of Rattus norvegicus with 8 samples.

Results

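Liver expression of 10 genes of antigen presentation by major histocompatibility complex (MHC) class II was examined in furan-treated and control rats. The genes were taken by symbol from the array annotation: RT1-Da, RT1-Db1, RT1-Ba, RT1-Bb, RT1-DMa, RT1-DMb, Cd74, Ciita, Cd86 and Cd80. They carried 12 probes, and they are 10 of 18398 named genes on the array. Furan is a volatile heterocyclic compound that causes liver and bile duct tumours in rodents. In the furan group, 4 male F344 rats, of the inbred Fisher strain, were gavaged with furan at 8 mg per kg body weight, 5 times weekly, for 90 days. The control group held 4 male rats of the same strain, and what they were given was not stated in the sources used here. All 8 animals were 18 weeks old and were killed 24 h after the last dose. RNA of each liver was labelled with Cy3 and hybridised to 1 array, so each value below belongs to 1 animal and to whole liver.

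MHC class II molecules are pairs of an alpha and a beta chain that carry peptides from the endosomes to the cell surface, where CD4+ T cells read them. They are made mainly by dendritic cells, B cells and macrophages, and in liver the Kupffer cells and sinusoidal endothelium can carry them as well. The invariant chain Cd74 guides new molecules to the endosomes, the RT1-DM pair helps exchange its remnant for a peptide, and Ciita is the coactivator that switches the class II genes on without binding DNA itself. Cd80 and Cd86 are the costimulatory ligands of CD28 on T cells. In the rat, RT1-D corresponds to human HLA-DR, RT1-B to HLA-DQ and RT1-DM to HLA-DM.

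Class II promoters carry an X box, bound by the RFX complex, and a Y box, bound by NF-Y, and Ciita docks on these factors. Promoter sequences of RefSeq on the GRCr8 build were on file for 8 of the 10 genes in 9 entries, each reaching from 250 bases before to 50 bases after the gene's start. They were searched on both strands for CCAAT, the Y box core (ATTGG when read from the other strand), and for AGCAAC, a core of the X1 box. CCAAT was found in 7 of the 9 entries and in 37.5% of all 33469 promoters. AGCAAC was found in 3 of the 9, those of RT1-Da, RT1-Db1 and Cd74, and in 14.7% of all promoters. A longer form of the Y box, CTGATTGG, was chosen after the promoters had been seen. It contains the core and occurred in RT1-Da, RT1-Db1, RT1-Ba and RT1-Bb, and in 3.50% of all promoters. The 6 stretches of 100 bases below are shown because they hold these motifs in the genes whose levels follow, 5′ to 3′ on the strand of the gene, with the matches in capitals.
RT1-Da: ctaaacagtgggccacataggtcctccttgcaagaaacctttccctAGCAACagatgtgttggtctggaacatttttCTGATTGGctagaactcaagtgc
RT1-Db1: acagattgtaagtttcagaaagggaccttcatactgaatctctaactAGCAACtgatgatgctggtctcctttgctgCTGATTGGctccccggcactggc
RT1-Ba: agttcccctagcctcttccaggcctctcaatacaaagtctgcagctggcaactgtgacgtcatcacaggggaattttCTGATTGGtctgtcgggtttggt
RT1-Bb: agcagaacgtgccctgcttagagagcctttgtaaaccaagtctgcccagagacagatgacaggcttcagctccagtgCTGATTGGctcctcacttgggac
RT1-DMa: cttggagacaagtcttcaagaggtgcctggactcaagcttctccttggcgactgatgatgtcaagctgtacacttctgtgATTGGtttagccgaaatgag
Cd74: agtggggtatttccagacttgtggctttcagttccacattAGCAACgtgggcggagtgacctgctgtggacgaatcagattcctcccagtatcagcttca
They lie at chr20:4515286-4515385 (plus strand) for RT1-Da, chr20:4560223-4560322 (minus) for RT1-Db1, chr20:4576934-4577033 (plus) for RT1-Ba, chr20:4604160-4604259 (minus) for RT1-Bb, chr20:4712380-4712479 (minus) for RT1-DMa and chr18:56527095-56527194 (plus) for Cd74. The first base of the X1 core lay 34 bases before that of the Y box core in RT1-Da and 33 bases before it in RT1-Db1. A match describes letters in this window and was not tested for binding.

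The levels below are log2 signals relative to the 75th percentile of the array, which is set at 0, so 1 unit is a doubling. Of the 10 genes, 8 were tested, and all 8 were well above background on all 8 arrays. In all, 0 of these 8 passed the test of furan against control (limma, Benjamini-Hochberg adjustment over 17786 features, adjusted p below 0.05), and 0 had an unadjusted p below 0.05. No alternative setting out of 22 called any of them. On the arrays of slide 1 alone, only 323 of 17786 features were called higher and 223 lower. On slide 2 alone these counts were 846 and 614, so a call was unlikely in these settings for any gene. In the fit of all 8 arrays, 34.1% of all features were called, 17.3% higher and 16.8% lower in furan. Of the called features 50.7% were higher, against 31.8% with another background correction (normexp), which moved the median of all features to -0.18. No member had furan values clear of all control values, against 36.7% of all features. All 8 were higher in mean in furan, as were 47.8% of all features, and their median change was 0.36, against -0.03 over all features. The 8 genes come from the same 8 livers, so their shared direction is not that of 8 separate observations.

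Depth and scan quality differed among the arrays. The 75th percentile of signal was 1256 to 1596 intensity units on the furan arrays and 827 to 1057 on the control arrays, and 73.2% to 78.5% of spots on furan arrays and 70.9% to 74.8% on control arrays were well above background. No spot was saturated. The scanner software marked 2 arrays for evaluation, furan 1 (median coefficient of variation among replicate spots of 12.8%) and control 2 (9.38%). Slide 1 held arrays 1 and 2 of each group and slide 2 held arrays 3 and 4 of each group, so both groups were measured on both slides. Albumin, the defining gene of hepatocytes, had a level of 7.60 ± 0.23 in furan and 7.96 ± 0.26 in control livers (SD, n = 4 each).

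**Figure D1:**
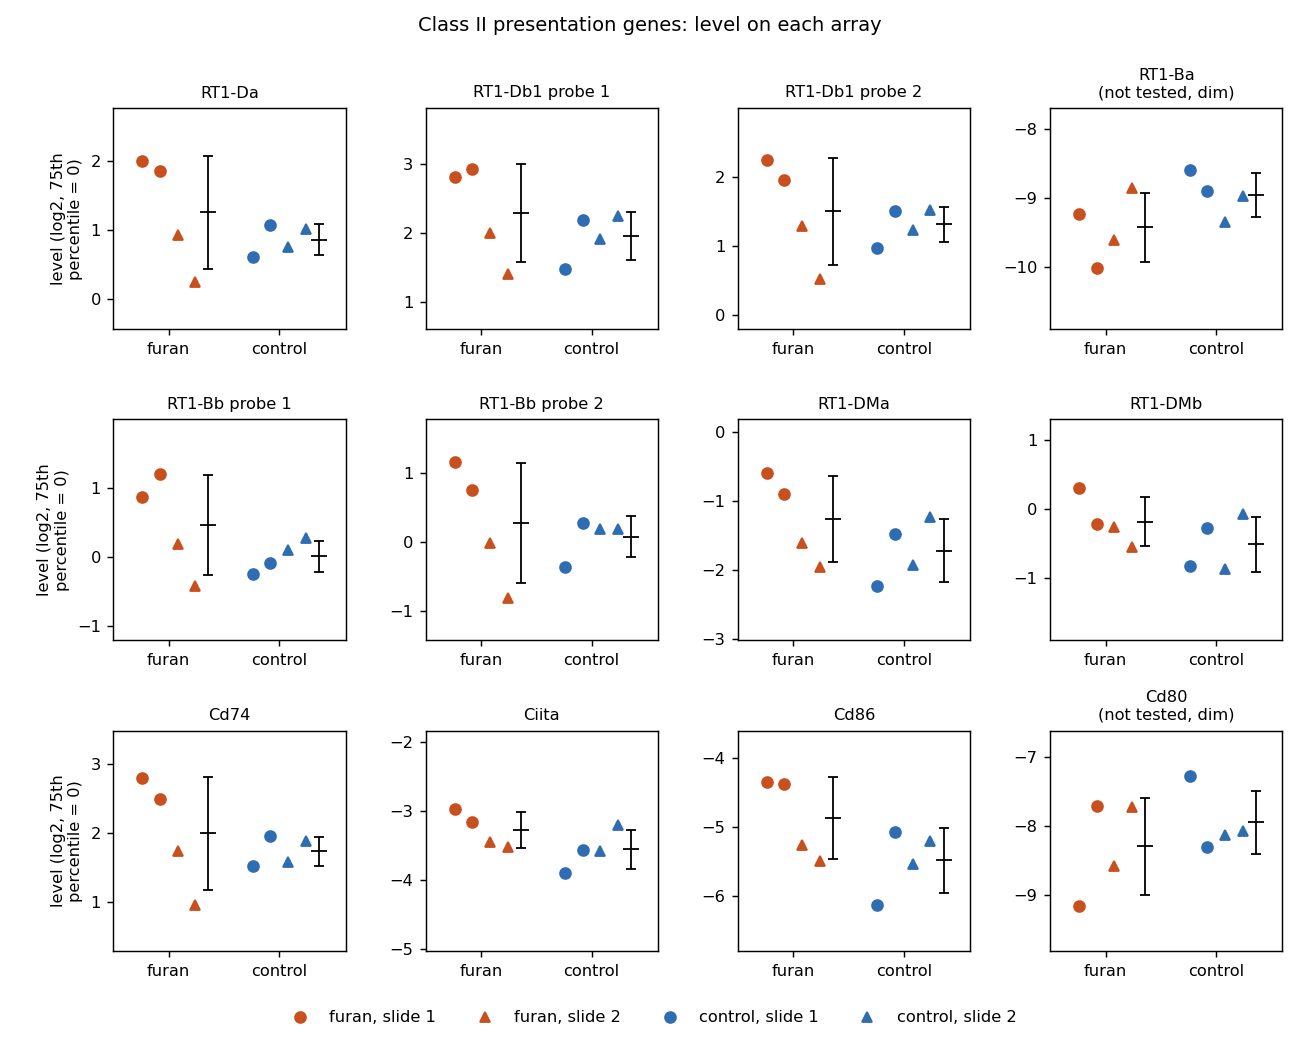
Level of each of the 12 probes on each array, as log2 signal with the array's 75th percentile at 0, furan left of control; circles are slide 1 and triangles slide 2, and the black bar gives the mean with 1 SD (n = 4). Each panel spans the same number of log2 units. In the 8 tested genes the furan circles lie above the furan triangles, while the control arrays span less for Cd74, RT1-Da and RT1-Bb.

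RT1-Da, the alpha chain of the RT1-D molecule, had levels of 1.99, 1.85, 0.92 and 0.24 on furan arrays 1 to 4, against 0.60, 1.06, 0.74 and 1.01 on control arrays 1 to 4. Both slide 1 furan arrays were above every control and furan 4 was below every control, so the groups overlapped. The change was 0.40 (SE 0.37, adjusted p = 0.435), a ratio of 1.32 with a 95% interval of 0.734 to 2.36.

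RT1-Db1, the beta chain that pairs with RT1-Da, had levels of 2.82, 2.93, 2.01 and 1.42 on furan arrays, against 1.49, 2.20, 1.92 and 2.25 on control arrays. As for RT1-Da, furan 1 and 2 were above every control and furan 4 was below every control. The change was 0.33 (SE 0.35, adjusted p = 0.489), a ratio of 1.26 (95% interval 0.726 to 2.18). A second RT1-Db1 probe read 2.25, 1.95, 1.28 and 0.51 on furan arrays, against 0.97, 1.50, 1.23 and 1.52 on control arrays. This probe gave a change of 0.19 and the same placing of furan 1, 2 and 4.

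RT1-Bb, the beta chain of the RT1-B molecule, had levels of 0.87, 1.20, 0.18 and -0.42 on furan arrays, against -0.24, -0.09, 0.10 and 0.27 on control arrays. Furan 1 and 2 were again above all controls and furan 4 below them. The change was 0.45 (SE 0.33, adjusted p = 0.322), a ratio of 1.37 (95% interval 0.809 to 2.31). A second RT1-Bb probe read 1.17, 0.76, -0.01 and -0.81 on furan arrays, against -0.36, 0.29, 0.19 and 0.20 on control arrays, a change of 0.20. On this probe too, furan 1 and 2 were above all controls and furan 4 below them.

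RT1-Ba, the alpha chain that pairs with RT1-Bb, was not well above background on any of the 8 arrays. Its signal lay between -10.01 and -8.85 on furan arrays and between -9.35 and -8.59 on control arrays, which gives no order. The probe of RT1-Ba and the second probes of RT1-Db1 and RT1-Bb are 60-base sequences, printed 5′ to 3′ with no part marked, because they show which stretch each reading stands for.
RT1-Db1: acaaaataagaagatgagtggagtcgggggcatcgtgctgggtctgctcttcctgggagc
RT1-Ba: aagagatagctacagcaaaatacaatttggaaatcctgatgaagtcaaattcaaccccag
RT1-Bb: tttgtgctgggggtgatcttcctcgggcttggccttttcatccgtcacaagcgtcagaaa
The brightest probes lie on the rn4 build at chr20:4641104-4641163 for RT1-Da, chr20:4671516-4671575 for RT1-Db1, chr20:4730533-4730583 for RT1-Bb, chr20:4844372-4844431 for RT1-DMa, chr20:4830313-4830372 for RT1-DMb, chr18:56765468-56765527 for Cd74, chr10:5087176-5087235 for Ciita, chr11:66228898-66228957 for Cd86 and chr11:64045405-64045464 for Cd80. The printed ones lie on the same build at chr20:4672665-4672724 (minus strand) for RT1-Db1, chr20:4700973-4701032 (plus) for RT1-Ba and chr20:4732187-4732246 (minus) for RT1-Bb, and their place in the gene was not looked up because no annotation of that build was used. RT1 genes form a family of similar sequences, so signal from a relative on these probes is uncertain.

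Cd74, the invariant chain, had levels of 2.80, 2.49, 1.75 and 0.96 on furan arrays, against 1.53, 1.96, 1.59 and 1.88 on control arrays. Furan 1 and 2 were above all controls, furan 3 lay among them and furan 4 lay below all of them. The change was 0.26 (SE 0.37, adjusted p = 0.621), a ratio of 1.20 (95% interval 0.667 to 2.15). Without furan 1 the change of Cd74 was -0.0078.

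RT1-DMa, the alpha chain of the peptide exchange factor, had levels of -0.60, -0.91, -1.62 and -1.95 on furan arrays, against -2.24, -1.48, -1.93 and -1.23 on control arrays. Furan 1 and 2 exceeded all controls and the other two furan arrays lay among them. The change was 0.45 (SE 0.34, adjusted p = 0.328), a ratio of 1.37 (95% interval 0.803 to 2.33). RT1-DMb, its beta chain, had levels of 0.31, -0.21, -0.26 and -0.55 on furan arrays, against -0.82, -0.27, -0.87 and -0.08 on control arrays. Only furan 1 exceeded all controls here. The change was 0.33 (SE 0.24, adjusted p = 0.321), a ratio of 1.26 (95% interval 0.858 to 1.84).

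Ciita, the class II coactivator, had levels of -2.98, -3.16, -3.45 and -3.53 on furan arrays, against -3.90, -3.57, -3.58 and -3.20 on control arrays. Furan 1 and 2 exceeded the highest control, and furan 3 and 4 lay within the control range. The change was 0.28 (SE 0.18, adjusted p = 0.257), a ratio of 1.22 (95% interval 0.913 to 1.62). With normexp the change of Ciita was 0.032 (adjusted p = 0.854).

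Cd86, the costimulatory ligand, had levels of -4.34, -4.37, -5.25 and -5.49 on furan arrays, against -6.12, -5.07, -5.53 and -5.20 on control arrays. It was the dimmest of the 8 tested genes, with spot signals of 8.6 to 85.7 intensity units. The 2 spots of its probe differed by up to 0.93 log2 units on an array (median 0.33). The change of Cd86 was the largest of the 8, 0.61 (SE 0.33, adjusted p = 0.183), a ratio of 1.53 (95% interval 0.906 to 2.58), and the ranges still overlapped. With normexp it became -0.059, so the direction for Cd86 was not stable. Cd80, its relative, was well above background on furan 2 only and was not tested.

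**Figure D2:**
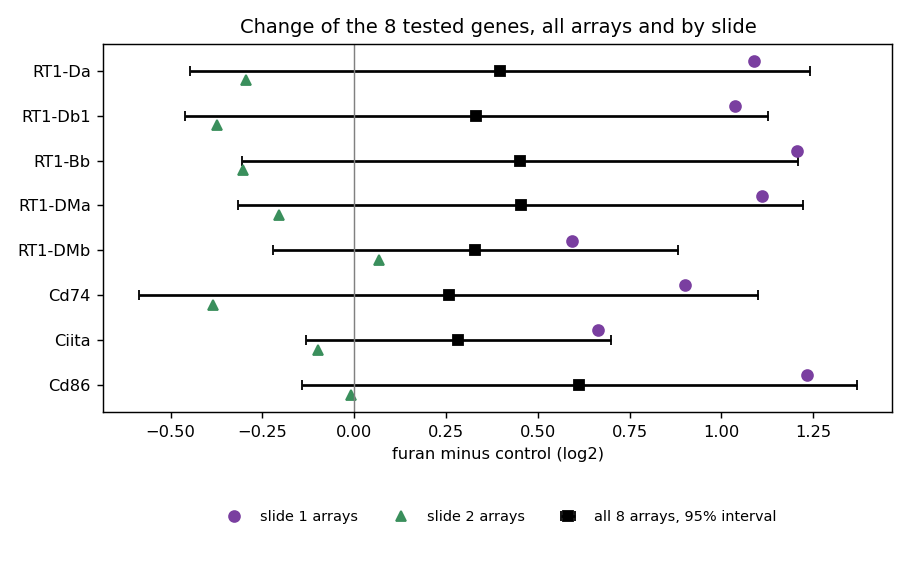
Furan minus control in log2 units for the 8 tested genes; squares are all 8 arrays with 95% intervals, circles the slide 1 arrays and triangles the slide 2 arrays. Every interval includes 0, all circles lie above 0 (0.59 to 1.23) and all triangles but that of RT1-DMb lie below it.

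The furan group was not uniform for these genes. Their mean level fell from furan 1 to furan 4. The means of the pan-leukocyte, dendritic cell, biliary and interferon gamma lists given below fell in the same order, as did the level of RT1-DOb. Both slide 1 furan arrays exceeded both slide 2 furan arrays in 8 of 8 genes, against 20.4% of all features, and both exceeded every control in 7 of 8, against 25.6% of all features. The genes share the same livers, so these counts are not of separate observations. Furan 4 was the lowest furan array in 8 of 8 genes and fell below all controls for RT1-Da, RT1-Db1, RT1-Bb and Cd74. Furan 3 lay within the control range in 8 of 8. Among the controls, control 1 was lowest in 7 of 8, the exception being RT1-DMb.

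Within slide 1 alone, furan minus control was 0.59 to 1.23 and positive for 8 of 8 genes, with a median of 1.06. Within slide 2 alone it was -0.38 to 0.07 and negative for 7 of 8, with a median of -0.25. Each slide holds 2 arrays of each group. The difference between the slides was examined for all features with a group-by-slide term, a test chosen after the data had been seen. The median difference (slide 1 minus slide 2) was 1.30 for the 8 genes and -0.06 over all features. It had an unadjusted p below 0.05 for 7 of 8 genes, all but RT1-DMb, against 6.29% of all features. The genes share the same livers, so these are not 7 separate results. With adjustment over all features (limma) none of the 8 genes and none of the 17786 features passed, 0.0% of them, the smallest adjusted p among the 8 being 0.778 for RT1-Bb and RT1-Da. With 2 arrays of each group on a slide the adjusted test also found none of the differences planted in simulated data. The simulated noise included any spread between the slides, which the test on the real data takes out. The simulation may therefore understate what the test can find. The outcome of the test is not read for or against a difference between the slides. Animals differ between the slides, so slide and animal cannot be told apart.

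The spread within the furan group was wider than within the control group for several members. The SD among furan arrays over that among control arrays was 3.88 for Cd74, 3.72 for RT1-Da and 3.26 for RT1-Bb. It was 2.04 for RT1-Db1, 1.38 for RT1-DMa, 1.26 for Cd86, 0.90 for RT1-DMb and 0.89 for Ciita, against a median of 1.29 over all features, and 4.27% of all features had a larger furan SD than Cd74.

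The profile of Cd74 over the arrays was set against that of every other feature. Profiles were levels minus their 8-array mean, compared over 8 arrays by root mean square difference among 16537 features, whose median difference from Cd74 was 0.634. Of the other 7 tested members, RT1-Da had rank 1 at 0.089 and RT1-Db1 rank 7 at 0.172. RT1-DMa had rank 32, RT1-Bb rank 35, Cd86 rank 112, RT1-DMb rank 268 and Ciita rank 410 at 0.381. The 8 nearest named genes outside the list were Lpcat2, Clec12a, Apobec3, Robo2, Lcp1, Plekhg2, Clip2 and Mical1, with differences of 0.148 to 0.217, and 2 features without a gene name came closer. Lcp1, the leukocyte actin-bundling protein, had 1.23, 1.00, 0.26 and 0.04 on furan arrays, against 0.01, 0.54, 0.25 and 0.43 on control arrays. Clec12a, a myeloid lectin receptor, had -1.43, -2.29, -2.77 and -3.49 on furan arrays, against -3.00, -2.40, -2.84 and -2.45 on control arrays. Both genes were chosen for their likeness to Cd74, so the order of their arrays is no separate observation.

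**Figure D3:**
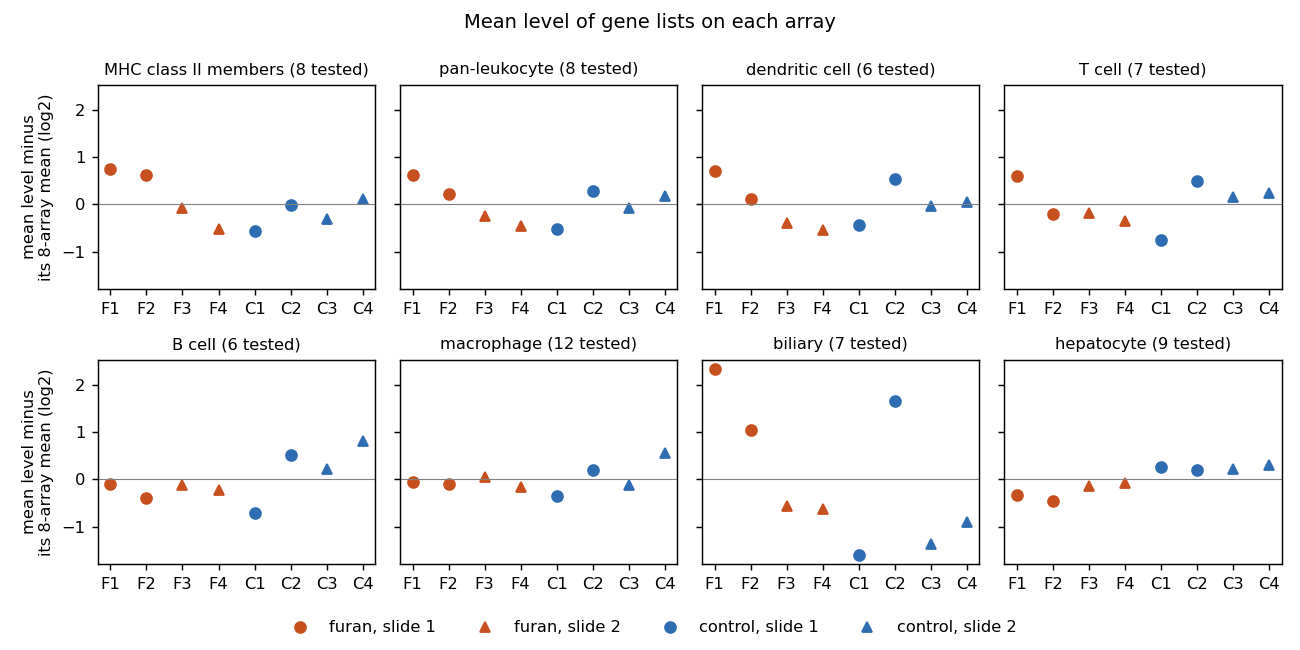
Mean level of the tested genes of 8 lists on each array, minus the list's mean over the 8 arrays (log2), furan arrays (F1 to F4) left of control arrays (C1 to C4); circles are slide 1 and triangles slide 2. The class II, pan-leukocyte, dendritic cell, T cell and biliary lists are all highest on furan 1, and the B cell, macrophage and hepatocyte lists are highest on control 4.

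Marker lists of the cells that carry class II were read beside these levels. In whole liver, a smaller number of cells and less RNA per cell cannot be told apart. The pan-leukocyte list (8 of 8 tested, none called) averaged -0.88, -1.28, -1.75 and -1.95 on furan arrays 1 to 4, and -2.02 to -1.22 across control arrays. Its median of furan minus control was 0.47 within slide 1 and -0.44 within slide 2, a change of sign like that of the class II genes (1.06 and -0.25). Its mean was highest on furan 1, and control 1 had the lowest value of the 8. Ptprc, the common leukocyte antigen CD45, had a difference of -0.27 (adjusted p = 0.317). The dendritic cell list (6 of 10 tested, none called) averaged -4.08, -4.67, -5.18 and -5.31 on furan arrays 1 to 4, and -5.22 to -4.25 in control. It was also highest on furan 1, and its slide medians were 0.43 and -0.63. The T cell list (0.13 and -0.53) and the sinusoidal endothelium list (0.13 and -0.55), both given below, changed sign as well. For the macrophage list below these medians were -0.05 and -0.30, and for the B cell list -0.14 and -0.64, with no change of sign. Xcr1, Ccr7 and Siglech were not tested because they were dim. Batf3, a factor of cross-presenting dendritic cells, had a difference of -0.35 (adjusted p = 0.450; -0.46 with normexp, adjusted p = 0.040). The macrophage list (12 of 12 tested, none called) averaged 0.08 to 0.28 in furan and -0.12 to 0.79 in control, and its member Adgre1 had a difference of -0.31 (adjusted p = 0.150). None of these 3 lists separated the groups in mean level. None held a called gene, where 34.1% of all features were called in either direction.

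The lymphocyte and endothelial lists were read in the same way. Beside them stand the 16.8% of all features called lower and the 34.1% called in either direction. The B cell list (6 of 9 tested) averaged -4.86 to -4.56 in furan and -5.17 to -3.64 in control, and 1 member fell: Pax5, the B cell identity factor, by 0.91 on the log2 scale (SE 0.20, adjusted p = 0.010). The T cell list (7 of 9 tested) averaged -4.98 to -4.02 in furan and -5.38 to -4.13 in control. Of its members Cd8b fell by 0.58 (adjusted p = 0.023), a call lost without furan 2 (0.061), furan 3 (0.056) or control 3 (0.063). Sinusoidal endothelial markers (7 of 7 tested, none called) averaged -0.63 to -0.41 in furan and -1.92 to 0.21 in control, and Cdh5, an endothelial cadherin, had a difference of -0.40 (adjusted p = 0.081; 0.044 without furan 4 and 0.014 with normexp). Their part in the class II levels was not tested.

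Epithelial markers were read as well. The biliary list (7 of 8 tested) averaged -0.62, -1.92, -3.53 and -3.58 on furan arrays 1 to 4, against -4.55, -1.29, -4.33 and -3.86 on control arrays 1 to 4. Furan 1, control 2 and furan 2 were the highest arrays. In the list 2 genes rose and 5 were not called, with 17.3% of all features called higher. Epcam, a cholangiocyte adhesion molecule, rose by 1.79 (SE 0.37, adjusted p = 0.007), and Sox9, a biliary transcription factor, rose by 0.48 (adjusted p = 0.021). The call of Sox9 was lost without control 1 (0.054) or control 2 (0.052), with the median of spots as the scale (0.068), without the filter on dim probes (0.051) and with normexp, where the change was 0.17 (adjusted p = 0.215). Of the hepatocyte list (9 of 9 tested), which averaged 5.81 to 6.20 in furan and 6.46 to 6.58 in control, 7 fell and 1 rose, with 16.8% of all features called lower and 17.3% called higher. The plasma protein genes Apoh and Ttr fell by 0.79 and 0.71 (with quantile normalization -0.15 and -0.10, adjusted p = 0.413 and 0.474), the hepatocyte factor Hnf4a fell by 0.98, and Apoa1, an apolipoprotein, rose by 0.72. Without both furan 1 and control 2, the median change of the 8 class II genes was 0.24.

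Of 13 lysosomal processing genes tested, 3 rose and 1 fell, near the 34.1% of all features called in either direction, with a median change of -0.002. Ifi30, a thiol reductase that opens antigens for loading, had levels of 3.04, 3.53, 3.35 and 3.26 on furan arrays, against 2.70, 2.50, 2.49 and 2.77 on control arrays. The groups did not overlap, as in 36.7% of all features. Ifi30 rose by 0.68 (SE 0.13, adjusted p = 0.006, and 0.057 with the median of spots as the scale). Cst3, a secreted cathepsin inhibitor, rose by 0.56 (SE 0.12, adjusted p = 0.009). Lamp2, a lysosomal membrane protein, had 1.28, 1.32, 1.65 and 1.61 on furan arrays, against 2.44, 2.38, 2.34 and 2.54 on control arrays, and fell by 0.96 (adjusted p = 0.0013). Ctsz, a cathepsin, rose by 0.40 (adjusted p = 0.038). That call did not survive leaving out any array but furan 3 (adjusted p 0.058 to 0.102).

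Of 9 tested factors that act at class II promoters, 1 fell and 8 were not called, with 34.1% of all features called in either direction. Rfxap, an RFX subunit, fell by 0.58 (SE 0.11, adjusted p = 0.006), while Rfx5, another RFX subunit, had a difference of 0.25 (adjusted p = 0.289; -0.44 with normexp, adjusted p = 0.009) and Irf8, a myeloid factor, one of -0.12 (adjusted p = 0.874). Irf8 was far lower on control 1 (-5.29) than on the other controls, and furan 4 (-5.34) was lower still. RT1-DOb, the only tested gene of the RT1-DO and other class II genes, had a difference of -0.18 (adjusted p = 0.697; -0.46 with normexp, adjusted p = 0.0065).

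The interferon gamma pathway, which induces Ciita in many cells, was also read. Ifng itself was not well above background on any of the 8 arrays. Of the 9 genes of this list tested here, 1 rose and 8 were not called, with 17.3% of all features called higher. The chemokine Cxcl10 had -1.39, -1.62, -2.45 and -2.61 on furan arrays, against -2.76, -2.76, -3.17 and -3.37 on control arrays, and rose by 1.00 (SE 0.30, adjusted p = 0.032). That call was lost without furan 1 (0.060), furan 2 (0.089), control 3 (0.077) or control 4 (0.080). Irf1, an interferon-induced transcription factor, had a difference of -0.38 (adjusted p = 0.076) and was called without control 1 (0.022).

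Costimulation and checkpoint genes were mostly dim: 4 of 10 were tested and 2 fell, with 16.8% of all features called lower. Cd274, the ligand PD-L1, had -5.29, -6.19, -5.09 and -5.83 on furan arrays, against -4.29, -4.36, -4.55 and -4.43 on control arrays, and fell by 1.19 (SE 0.23, adjusted p = 0.006). Icoslg, the ligand of ICOS, fell by 0.87 (adjusted p = 0.002). All 4 furan arrays lay below all 4 control arrays for both genes, and the groups did not overlap in 36.7% of all features.

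MHC class I presentation, the route that shows peptides from the cytosol, had 7 of 16 tested genes lower, against 16.8% of all features, and 1 higher, with a median change of -0.39. B2m, the shared light chain, had 4.21, 4.56, 4.64 and 4.85 on furan arrays, against 5.59, 4.93, 5.21 and 5.41 on control arrays. It fell by 0.72 (SE 0.18, adjusted p = 0.018; 0.055 with the median of spots as the scale). RT1-A2, a class I heavy chain, fell by 0.59 (adjusted p = 0.003) and Pdia3, a chaperone of peptide loading, fell by 0.63 (adjusted p = 0.008). Tapbp, the tapasin that bridges class I to the peptide transporter, rose by 0.36 (adjusted p = 0.040). When single arrays were left out, that call was kept without furan 3 or control 1 and lost without any other array (adjusted p 0.061 to 0.103). The changes of the class I genes and of the 8 class II genes were taken from the same fit, and the difference between the lists was not tested.

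**Figure D4:**
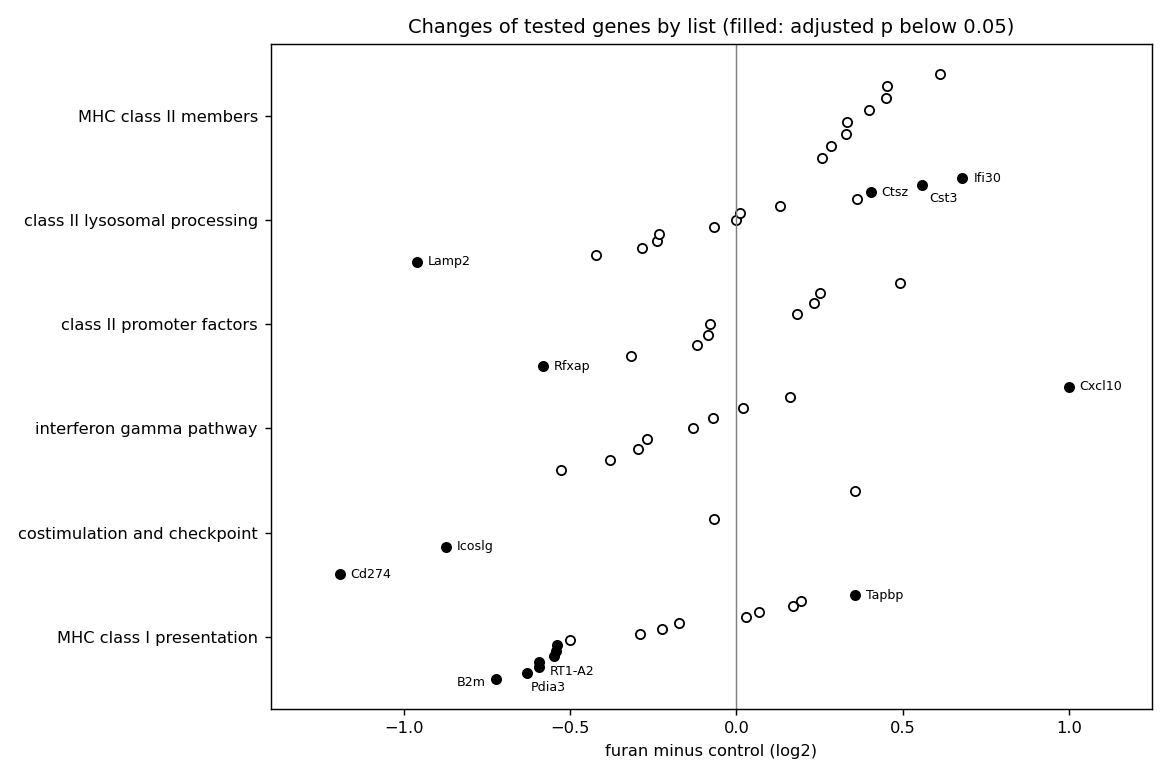
Furan minus control in log2 units for the tested genes of 6 lists; filled points passed the test (adjusted p below 0.05), open points did not, and named genes are labelled. All 8 class II points are open and lie between 0.26 and 0.61, and 7 of 16 class I points are filled below 0.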

How the data were processed

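Arrays were read in 1 colour (Cy3). Per the file headers and the submitters' processing notes, the authors extracted spots with Agilent Feature Extraction 10.7, and the deposited scanner files give processed signal as linear, background-subtracted intensity. A deposited table of the whole series held those intensity values scaled to a 75th percentile near 1000 on each array (column medians 91.5 to 124.8), and served as an alternative.

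From the processed signal, a log2 level was computed by subtracting the log2 of each array's 75th percentile over its 58717 non-control spots. Spots marked as outliers were left out, spots of a probe were averaged, and 170 of 30367 probes without a usable spot on every array were dropped. A probe was tested where at least 50% of its spots were called well above background on all 4 arrays of a group (20268 probes). The brightest probe per gene gave 17786 features. Genes were named by RefSeq accession, symbol or synonym, or, for 170 probes, by the name in the array annotation (22195 probes in all). Probe positions are those of the files, on rn4. limma 3.58.1 in R 4.3.3 (lmFit, eBayes; two-sided) compared 4 furan with 4 control arrays, Benjamini-Hochberg adjustment covering every feature and a threshold of 0.05. The procedure was tested on simulated data. The signal and the number of arrays limit precision, and no depth in reads applies. Separate animals are named by the design text.

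The genes and lists were chosen with earlier results of these data known. Some results are not reported here. All members were named. From each list, up to 3 called genes in the more frequent direction and the largest called in the other were named, or, in lists with no call, the gene of lowest p. Alternatives covered background correction, scaling, filters, probe choice, slide, replicate block and each array left out.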

Additional observations from a re-analysis of the deposited data

Results flagged for a closer look

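In 2 of 82 groups of 4 arrays tested, 1 array stood apart from the others by Dixon's criterion, and chance marks about 1 in 20 groups. The second RT1-Bb probe read -0.36 on control 1, with the nearest control at 0.19. Irf8 read -5.29 on control 1, with the nearest control at -3.93, and it read -5.34 on furan 4.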

How the results depend on the processing

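None of the 8 class II genes was called in any of 22 alternatives. Their median change was 1.06 on slide 1 alone and -0.25 on slide 2 alone, and leaving out single arrays gave 0.18 to 0.65. On slide 2 alone the sign was negative for RT1-Da (-0.30), RT1-Db1 (-0.37), RT1-Bb (-0.30), RT1-DMa (-0.21), Cd74 (-0.38), Ciita (-0.10) and Cd86 (-0.0089). Leaving out single arrays gave -0.0078 (without furan 1) to 0.61 for Cd74, and Cd86 was -0.059 with normexp. Normexp moved the median of all features to -0.18, with 31.8% of calls higher against 50.7% in the fit as reported, and turned Rfx5 to -0.44. The count of class I genes called lower was 4 with the replicate block and 0 on either slide alone, and 6 to 7 with single arrays left out. The count of lysosomal genes called higher was 1 with the median as scale and 0 on either slide alone, and 2 to 3 with single arrays left out. Of all 17786 features, 2994 were called lower in the fit as reported and 2187 with the replicate block. Only 223 were called lower on slide 1 alone and 614 on slide 2 alone. Called higher were 3075 in the fit as reported, 1813 with the median as scale, 323 on slide 1 alone and 846 on slide 2 alone. The counts of 0 are thus not particular to these genes. Other signs turned for RT1-DOb (0.38), Irf8 (0.74), Batf3 (0.11) and Ptprc (0.031) on slide 1 alone. Irf8 lay between -0.48 and 0.22 with single arrays left out, and Alb was 0.32 with quantile normalization. The cause was not tested, except that each slide alone holds fewer arrays. Replicate numbers gave no consistent pairing of arrays (correlations of deviations -0.30 to 0.28). The same-number correlation was above the highest with another number for replicates 2 and 3 and below it for replicates 1 and 4. The replicate block left the members' change at 0.36 with none called. With it B2m (0.051), Sox9 (0.072), Cd8b (0.065) and Tapbp (0.097) lost their calls. Ctsz and Tapbp also lost theirs with the median as scale (0.169 and 0.265), and Ctsz (0.084), Tapbp (0.090), Cxcl10 (0.066) and Cd8b (0.052) without the filter on dim probes. Cd8b lost its call with a variance trend (0.061), and Alb gained one with slide as a block (0.042). Cd274 was -0.77 with normexp and Apoa1 1.14 with quantile normalization, both still called. Dim probes (RT1-Ba, Cd80) give no order.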
